A study of Mus musculus with 20 samples.

Results

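The 34 genes described here encode the proteins that bring pyruvate into mitochondria, turn it into acetyl-CoA and pass the carbon through the citric acid cycle, together with soluble enzymes of the malate-aspartate shuttle, malic enzymes, a transhydrogenase and a hydroxyglutarate dehydrogenase. They were chosen by function and by gene symbol from the 29339 genes of the deposited table, and all 34 passed the filter on low counts in each comparison. Their genotype and library series results were already known when the set was drawn up, so the members were selected on results of these same contrasts, and the counts below are a description that carries no support of its own. RNA was sequenced from heart tissue of 8-week-old C57BL/6 mice, either wild type (WT) or TECRL-/- (KO). Tecrl encodes a trans-2,3-enoyl-CoA reductase-like protein of the endoplasmic reticulum, and its loss is linked to inherited ventricular arrhythmia. There were 5 libraries labelled male WT (WT1, WT2, S7, S8 and S9), 5 male KO (S10, S11, S12, TKO5 and TKO6), 3 female WT (S1, S2 and S3) and 7 female KO (S4, S5, S6 and TKO1 to TKO4). The methods describe a library from each mouse and groups of 3 mice, fewer than the 5 to 7 libraries labelled male WT, male KO and female KO, so whether some libraries share a mouse is not settled and p-values measure the spread between libraries. How the KO allele was made is not given in the sources used here.

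Libraries held 12540002 to 20038593 counts (median 14713070), and their names formed 2 series, 12 named S and 8 named WT or TKO. Tecrl mRNA was not lower in the libraries labelled KO. Its level ran from 51.5 to 124.5 counts scaled to library size (CPM) over the 20 libraries, and the fitted KO minus WT difference was 0.02 on the log2 scale among males (edgeR adjusted p = 0.992) and 0.22 among females (adjusted p = 0.400). The table does not show which exons the reads cover, so this level does not check the genotype. Sex-linked genes went against the label in 6 libraries. The libraries labelled S7, S8 and S9, male WT, held Xist at 250 to 319.8 CPM and no Y-linked counts, and the libraries labelled S4, S5 and S6, female KO, held Y-linked genes at 182.0 to 202.5 CPM and Xist at no more than 0.255 CPM. Among the S-named libraries, WT and KO therefore coincided with the absence and presence of Y-linked transcripts, and the contributions of genotype and sex there cannot be told apart.

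Pyruvate enters the mitochondrial matrix through a carrier and is decarboxylated by the pyruvate dehydrogenase (PDH) complex, which kinases switch off by phosphorylation and phosphatases switch back on. The acetyl-CoA formed joins oxaloacetate to make citrate, and one turn of the cycle returns oxaloacetate while reducing the electron carriers that feed the respiratory chain. The adult heart draws most of its energy from mitochondrial oxidation, and fatty acids and pyruvate compete as sources of acetyl-CoA for the cycle.

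The 34 genes spanned a wide range of levels in heart RNA, and those of the cytosolic malate-aspartate enzymes were among the highest. Per length of transcript, as FPKM (fragments scaled to transcript length and library size), the highest means over the 20 libraries were those of Mdh1, the cytosolic malate dehydrogenase, at 763.9 ± 102.3 (SD), Idh2, the NADP-dependent mitochondrial isocitrate dehydrogenase, at 704.9 ± 95.7, and Got1, the cytosolic aspartate aminotransferase, at 446.4 ± 113.5. The order of Mdh1 and Idh2 did not go beyond their spread, nor did that of Got1 and the next gene, Sdhb, at 408.9 ± 40.6. At the low end were D2hgdh, which oxidises D-2-hydroxyglutarate, at 3.43 ± 1.05 FPKM, Me2, the NAD-dependent mitochondrial malic enzyme, at 3.12 ± 0.705, and Nnt, the proton-driven transhydrogenase that makes mitochondrial NADPH, at 0.380 ± 0.0944. The FPKM of Me2 rests on a gene length of 2455 bases in the table, against 7252 bases in GENCODE M21, so its value depends on the annotation. The regulators of PDH were uneven. The kinase Pdk2 averaged 97.3 FPKM and Pdk1 14.2, while the phosphatases Pdp2 (6.54) and Pdp1 (4.07) and the phosphatase regulator Pdpr (4.60) lay close together.

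**Figure D1:**
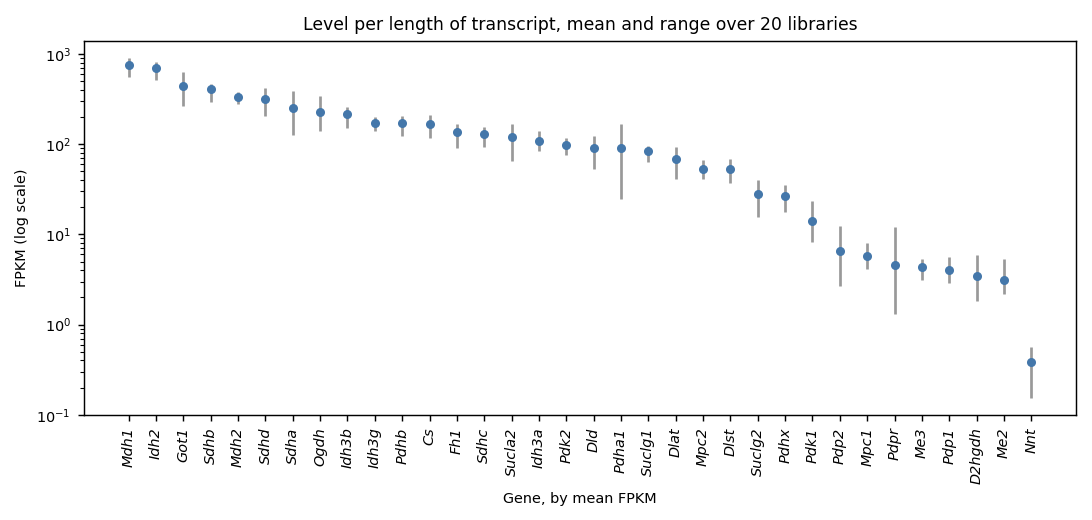
Mean FPKM (points) and the range over 20 libraries (lines) of the 34 genes, on a log axis and ordered by the mean. Mdh1 stands at the top with 763.9 FPKM and Nnt at the bottom with 0.380 FPKM, and Pdha1, Pdp2 and Pdpr have the longest lines among the genes of PDH and its regulators.

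Most of the 34 genes were low or high together in certain libraries, and the low libraries came from 3 of the 4 labelled groups (male WT, male KO and female WT). In the 7 female KO libraries the median member stayed between -0.08 and 0.22 log2 units of its own middle. The lowest of them was TKO4, where 27 of 34 genes were below their median by small amounts. Against each gene's own median over the 20 libraries, 33 of 34 genes were below it in S9 (male WT), 33 in S11 (male KO), 33 in S12 (male KO), 32 in S2 (female WT) and 32 in S3 (female WT). In WT1 (male WT) all 34 were above it, and in S1, S6 and S8 30 of 34 were. Over all genes tested, between 46.9% and 52.6% lay below their median in each library. The scaling to library size and the centring on each gene's median largely set this share. It is a reference for the counts above and no test of a lean over all genes. The median member lay 0.65 log2 units below its own middle in S9, 0.55 below in S11, 0.54 below in S3, 0.43 below in S12, 0.36 below in S2 and 0.30 below in S7, and 0.41 above it in WT1.

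**Figure D2:**
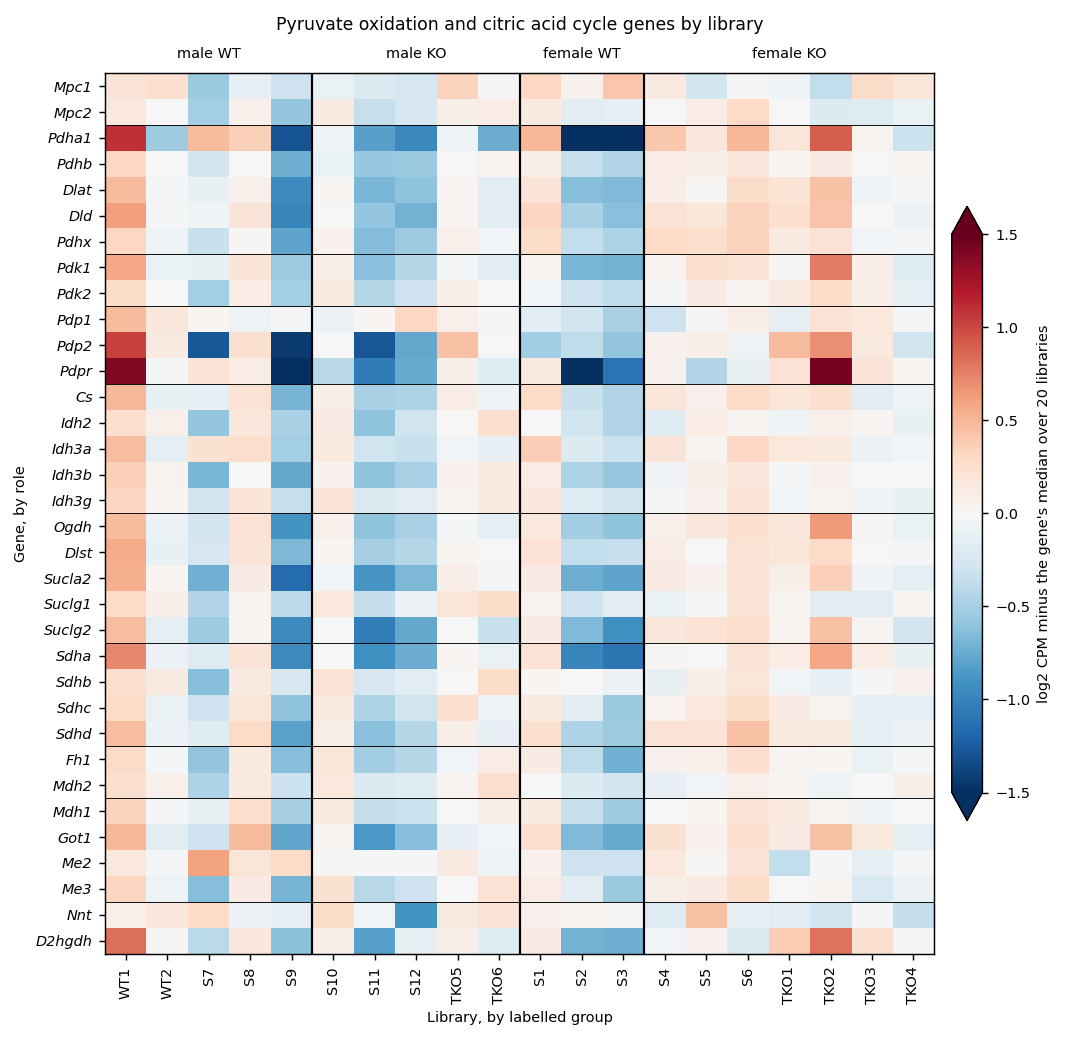
Level of each of the 34 genes (rows, by role) in each library (columns, by labelled group) as log2 CPM minus the gene's median over the 20 libraries; blue is below and red above, and colours saturate at the ends of the scale. S9, S11, S12, S2 and S3 are blue in nearly every row and WT1 is red in every row, whereas Mpc1, Pdp1, Me2 and Nnt are pale or of the other sign in several of these columns.

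Cell type markers differed between these libraries as well. Summed CPM of 7 atrial cardiomyocyte markers reached 8002 in S7, 7707 in S11, 6392 in S9 and 2324 in S12, against 642 in S10, 418.1 in S6, 292.3 in S5 and 35.8 to 69.5 in the other 13 libraries, where the defining markers Sln and Bmp10 had medians of 0.279 and 0 over all libraries. S2 and S3 held only 64.2 and 69.5 CPM of atrial markers, although 32 of the 34 genes were low in both. Those 2 libraries had the highest sums of 6 endothelial markers, 5517 and 4726 CPM, against 2232 to 3737 in the other 18. Fabp4 weighed most in these sums. It ran from 1260 to 4344 CPM over all libraries, and no other of the 6 markers exceeded 559 CPM. Summed CPM of the ventricular list ran from 39330 in S7 and 40930 in S9 to 60350 in TKO6. This list also holds genes of all cardiomyocytes, such as Myh6 at 10490 to 22310 CPM, so it does not separate ventricle from atrium. Mitochondrially encoded transcripts ran from 15.3% of counts in S7 to 30.4% in S2. The part of cell composition, dissection and RNA quality in the shared movement was not tested, and in bulk tissue fewer cells of a type and less RNA per cell cannot be told apart.

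**Figure D3:**
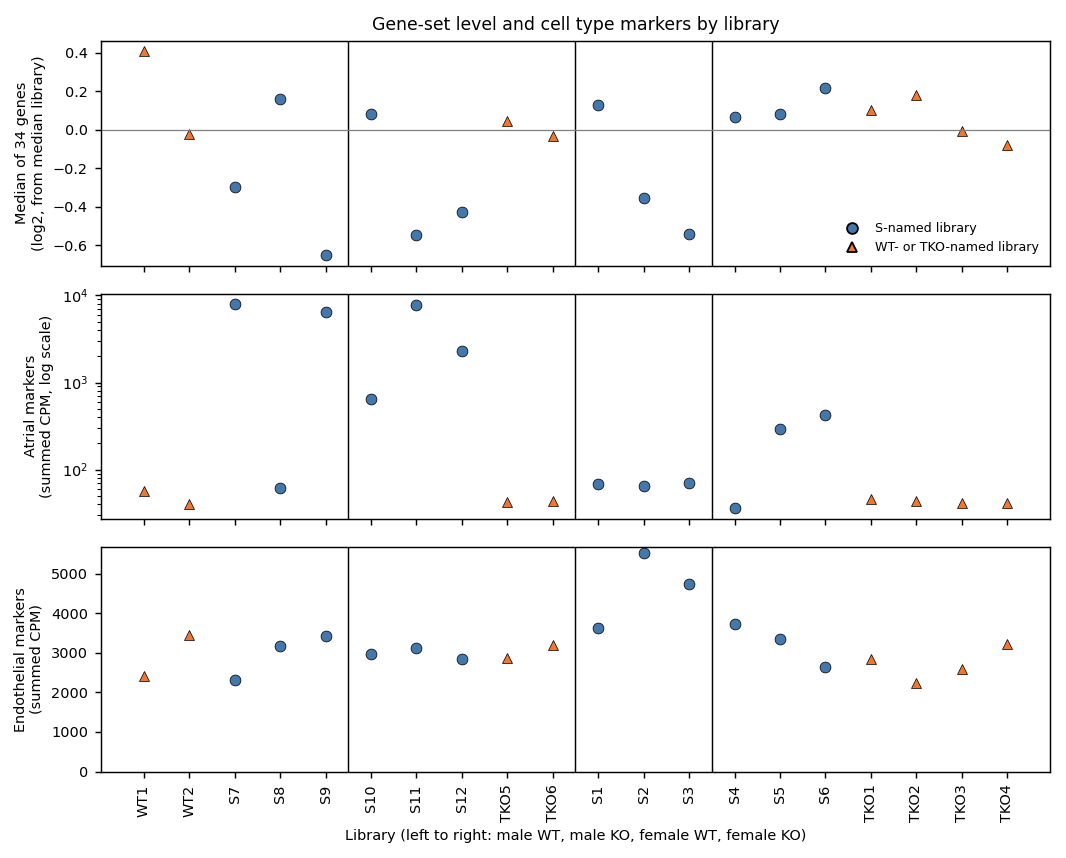
Median log2 deviation of the 34 genes (top), summed atrial markers on a log axis (middle) and summed endothelial markers (bottom) in each library; circles are S-named and triangles WT- or TKO-named libraries, and vertical lines separate the 4 labelled groups. S9 and S11 are low at the top and high in the middle panel. S2 and S3 are low at the top with atrial sums of 64.2 and 69.5 CPM and the highest endothelial sums, in which Fabp4 weighed most.

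Members differed in how far they moved. Within labelled groups, the residual SD on the log2 scale was 0.752 for Pdpr, 0.729 for Pdha1, which encodes the X-linked catalytic E1 alpha subunit of PDH, 0.663 for Pdp2 and 0.478 for Sdha, the flavoprotein subunit of succinate dehydrogenase. The narrowest were Pdp1 at 0.183, Me2 at 0.186, Mdh2, the mitochondrial malate dehydrogenase, at 0.199, Idh3g, a regulatory subunit of the NAD-dependent isocitrate dehydrogenase, at 0.204 and Sdhb, the iron-sulfur subunit of succinate dehydrogenase, at 0.227. The median over the 34 genes was 0.312, against 0.275 over all 15187 genes tested. Subunits of the same enzyme thus had unequal spreads. Sdha ranged 3.53-fold between its lowest and highest library and Sdhb 1.88-fold, and in the PDH complex Pdha1 ranged 7.99-fold and Pdhb, the E1 beta subunit, 2.06-fold.

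Promoter sequence is shown for Pdp2, Pdha1 and Suclg2, which are among the members with values given in every library. RefSeq windows from 250 bases before to 50 bases after the gene start (build GRCm38.p6) were held for 29 of the 34 genes. The 250 bases before the RefSeq start are printed 5′ to 3′ on the gene's strand, with matches to CACGTG (the E-box core) and CCAAT (the NF-Y core, or its reverse complement) in capitals. The windows are chr8:104591222-104591471 on the plus strand for Pdp2 (whose GENCODE start lies within the last bases), chrX:160138431-160138680 on the minus strand for Pdha1 and chr6:95718847-95719096 on the minus strand for Suclg2, the GTP-specific beta subunit of succinyl-CoA ligase.
Pdp2: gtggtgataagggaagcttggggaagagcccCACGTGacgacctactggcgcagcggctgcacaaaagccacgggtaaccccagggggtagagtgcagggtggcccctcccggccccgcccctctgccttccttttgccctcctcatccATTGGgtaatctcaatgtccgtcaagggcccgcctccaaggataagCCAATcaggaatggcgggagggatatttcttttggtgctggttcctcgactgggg
Pdha1: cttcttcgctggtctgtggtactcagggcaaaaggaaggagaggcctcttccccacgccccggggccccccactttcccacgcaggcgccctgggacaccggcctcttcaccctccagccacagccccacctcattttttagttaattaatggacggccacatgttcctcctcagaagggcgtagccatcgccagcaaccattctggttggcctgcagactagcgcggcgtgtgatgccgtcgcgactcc
Suclg2: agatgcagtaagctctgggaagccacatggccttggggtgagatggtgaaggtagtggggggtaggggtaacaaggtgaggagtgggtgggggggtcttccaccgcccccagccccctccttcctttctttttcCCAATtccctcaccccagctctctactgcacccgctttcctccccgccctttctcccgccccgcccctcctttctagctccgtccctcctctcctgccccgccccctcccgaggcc

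An E-box was found for Pdp2 (residual SD 0.663) and Pdpr (0.752), and also for Pdk2 (0.244) and Ogdh (0.364). Pdha1 (0.729) held none of the motifs searched, and no window was held for Pdp1. A link between motif and spread was not tested. On either strand of the whole window, CACGTG was found for 4 of 29 members (13.8%; Pdk2, Pdp2, Pdpr and Ogdh) and 8.09% of all 27025 genes with a window. CCAAT was found for 17 of 29 (58.6%) against 41.1%, GCATGCGC (the NRF1 core) for Ogdh and Sdhb (6.9%) against 3.05%, and TCAAGGTCA (an estrogen-related receptor site) for Sdhd alone (3.45%) against 0.47%. A match describes the letters of the window only.

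Among the libraries labelled male, none of the 34 genes was called between KO and WT, and the smallest adjusted p over all genes was 0.882, so Y-linked genes and Xist, which differ between these libraries, were not called either. With library series as a covariate, edgeR called 0 of 14481 genes at an adjusted p under 0.05 (0%) and 0 of 34 members. At an unadjusted p under 0.05 there were 688 genes and 0 members, and DESeq2 called 12 genes and 0 members. By the thresholds the study used, an unadjusted p under 0.05 and a log2 change of 0.58 or more in either direction, 303 genes (2.09%) and 0 members passed. The KO and WT groups did not overlap in CPM for 93 genes (0.642%) and for 0 members. The estimates leaned low, with 24 of 34 members below 0 and a median log2 fold change of -0.13, against a median of -0.01 over all genes tested. In the same fit all 5 adipocyte, 6 macrophage and 4 mesothelial markers tested were estimated lower (medians -4.09, -0.21 and -0.72), none was called, and their part was not tested. S7 (male WT) alone held 933.6 CPM of summed adipocyte and 308.4 CPM of summed mesothelial markers. The next highest libraries were S9 with 40.6 CPM of adipocyte markers and S11 with 113.8 CPM of mesothelial markers. The lean rested on few libraries: the median was -0.016 without WT1 (15 of 34 estimated higher), -0.017 without S8 (16 higher) and -0.26 without S10 (3 higher).

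Pdha1 (ENSMUSG00000031299, chromosome X, 160122209 to 160138413, minus strand, GENCODE M21 on GRCm38) had the largest male estimate. Its level was 719 CPM in WT1, 231 in WT2, 464 in S7, 429.8 in S8 and 136 in S9, against 323 in S10, 191 in S11, 171 in S12, 318 in TKO5 and 199.8 in TKO6. WT1, S7 and S8 lay above all 5 KO libraries, S9 lay below them and WT2 lay among them. The KO minus WT log2 fold change was -0.72 ± 0.38 (SE; adjusted p = 0.882), and -0.37 without WT1. One exon stretch of Pdha1 overlaps Map3k15 on the opposite strand, and the strand setting of the counting is not given in the sources used here.

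Pdpr (ENSMUSG00000033624, chromosome 8, 111094630 to 111137074, plus strand), whose protein restrains the PDH phosphatase catalytic subunit, came next. It stood at 61.5 CPM in WT1, 22.4 in WT2, 26.3 in S7, 24.7 in S8 and 6.71 in S9, and at 16.85 in S10, 10.5 in S11, 13.2 in S12, 24.6 in TKO5 and 19.8 in TKO6. WT1 and S9 were the extremes of the WT group, and the KO libraries lay between them. The log2 fold change was -0.69 ± 0.36 (adjusted p = 0.882), and -0.36 without WT1. Exons of Pdpr overlap the opposite-strand transcript 9430091E24Rik, with the same limit.

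Among the libraries labelled female, 33 of 34 members were estimated higher in KO, with a median log2 fold change of 0.34 against -0.02 over all genes. No member passed the adjusted threshold, where edgeR called 8 of 14511 genes (0.0551%). The 8 included 4 Y-linked genes, called higher in KO, and Xist, called lower. An unadjusted p under 0.05 was reached by 9 of 34 members beside 2597 genes. Only Suclg2 passed the study's thresholds, beside 1450 genes (9.99%), and only Pdp2 had groups that did not overlap in CPM, beside 703 genes (4.84%). Mpc1, a subunit of the pyruvate carrier, was the member estimated lower, at -0.32 ± 0.20. Cell type markers moved in this fit as well. Estimates were higher for 5 of 6 atrial and all 3 adipocyte markers tested (medians 2.17 and 1.595). They were lower for 5 of 6 endothelial and all 4 mesothelial markers (medians -0.27 and -0.76). None of these markers was called, and their part in the members' estimates was not tested. All 3 WT libraries were S-named, so with the series covariate the comparison came down to S4, S5 and S6 set against those 3, in which genotype and Y-linked transcripts coincided.

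The number of members called among females changed with the WT libraries that entered. Without S1, with S2 and S3 as the only WT libraries, 20 of 34 members (58.8%) were called higher in KO, beside 2409 of 14358 genes (16.8%). The median was then 0.50. Without S2 and S3 the median was 0.01, 18 of 34 members were estimated higher and none was called, with S1 as the only WT library and its spread taken from the others. S2 and S3 were left out because most members were low in them, and leaving out S1 keeps only those 2 as WT. The values of both fits, and the calls without S1, are therefore a description and no test of the estimate. The 20 members called without S1 included all 5 measured PDH subunits, from Pdhb at 0.50 ± 0.12 (adjusted p = 0.0133) to Pdha1 at 2.05 ± 0.30 (adjusted p = 0.00253). They also included Sdha at 1.08 ± 0.18, Sdhd, a membrane anchor of succinate dehydrogenase, at 0.77 ± 0.14, and both beta subunits of succinyl-CoA ligase, Suclg2 at 0.98 ± 0.18 and the ATP-specific Sucla2 at 0.88 ± 0.15. Pdpr, at 1.23 ± 0.40, had the second largest estimate and just missed the threshold (adjusted p = 0.0512). Neither pyruvate carrier subunit, Pdp1, Pdp2, Sdhb nor Mdh2 was called. S2 and S3 are the libraries described above with the highest endothelial sums.

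**Figure D4:**
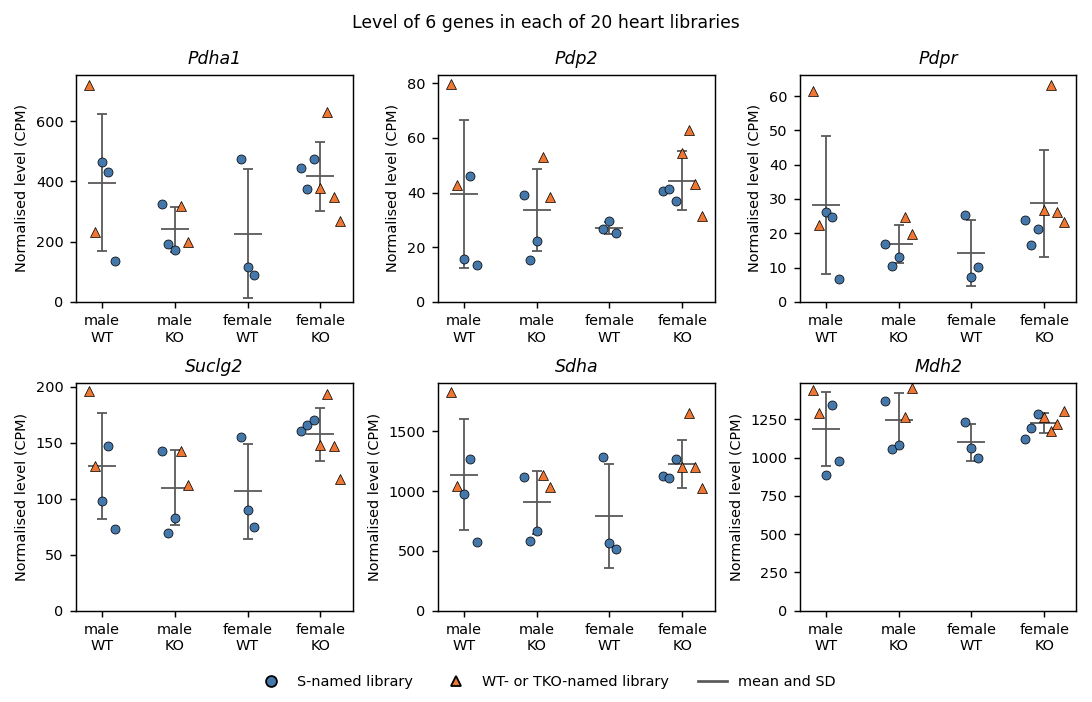
Level in CPM of 6 genes in each library, by labelled group, with group mean and SD; circles are S-named and triangles WT- or TKO-named libraries. For Pdha1, Suclg2 and Sdha, S1 lies within the female KO range and S2 and S3 far below it, while the Mdh2 groups lie close together.

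Pdha1 stood at 473 CPM in S1, 114 in S2 and 90.1 in S3, and the 7 female KO libraries ran from 268 (TKO4) through a median of 379 to 631 (TKO2). S1 was within the KO range, and S2 and S3 were below every other library of the study. The log2 fold change was 0.94 ± 0.49 (adjusted p = 0.332), and it was -0.11 without S2 and S3.

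Suclg2 (ENSMUSG00000061838, chromosome 6, 95473009 to 95718800, minus strand) showed the same layout. It stood at 155 CPM in S1, 90 in S2 and 75.0 in S3, against 118 to 194 in female KO with a median of 160.4. The log2 fold change was 0.63 ± 0.23 (adjusted p = 0.213). Among the male libraries it stood at 197 CPM in WT1, 129 in WT2, 98.0 in S7, 147 in S8 and 73.1 in S9, and at 142 in S10, 68.9 in S11, 83.2 in S12, 143 in TKO5 and 113 in TKO6. WT1 and S8 lay above every male KO library, the other 3 WT libraries lay among them, and the male log2 fold change was -0.22 ± 0.24.

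The KO estimates of males and females differed for no member at the adjusted threshold, where the interaction called 0 of 15187 genes (0%). An unadjusted p under 0.05 was reached by 2375 genes and 4 members: Pdha1 with a female minus male difference of 1.52 log2 units (adjusted p = 0.278), Pdk1 with 0.75 (adjusted p = 0.271), Me2 with 0.56 (adjusted p = 0.248) and Mpc1 with -0.51 (adjusted p = 0.306). Over all 20 libraries, with series and labelled sex as covariates, 0 of 15187 genes (0%) and 0 members were called for genotype, 294 genes (1.94%) and 0 members passed the study's thresholds, and the median member stood at 0.03. At an unadjusted p under 0.05 there were 748 genes and 0 members, and DESeq2 called 12 genes and 0 members.

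Between library series, 33 of 34 members were estimated higher in the WT- and TKO-named libraries than in the S-named ones of the same labelled group, with a median log2 difference of 0.19 against 0.00 over all genes. Only 1 of the 34 (2.94%) was called, Pdp2, beside 2231 of 15187 genes (14.7%). The exception in direction was Me2 at -0.20 ± 0.11. In the same comparison all 7 atrial, all 6 adipocyte and 5 of 6 macrophage markers were called lower in the WT- and TKO-named libraries (medians -6.99, -5.76 and -0.63), and their part in the members' difference was not tested. Among male WT and female KO libraries the 2 series also differed throughout in Y-linked and Xist transcripts, so series and sex cannot be told apart there. Without S7, S9, S11 and S12, the S-named libraries with the most atrial transcripts, 17 of 34 members were estimated higher, the median was -0.01 and none was called. Between 28 and 33 of the 34 genes were below their median in each of these 4 libraries, so this value is a description and no test of the series difference.

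Pdp2 (ENSMUSG00000048371, chromosome 8, 104591451 to 104599026, plus strand) encodes a catalytic subunit of the PDH phosphatase, the enzyme that reactivates PDH. It stood at 79.9 CPM in WT1, 42.7 in WT2, 15.55 in S7, 46.0 in S8 and 13.7 in S9, and at 39.1 in S10, 15.4 in S11, 22.3 in S12, 52.9 in TKO5 and 38.5 in TKO6. The 3 female WT libraries held 26.6, 29.6 and 25.3 CPM, and the 7 female KO libraries ran from 31.5 (TKO4) through 41.3 to 63.1 (TKO2). The lowest libraries were S9, S11 and S7, and no WT- or TKO-named library was under 31.5 CPM, but S8, S10 and S4 to S6 lay among them. The series difference was 0.74 ± 0.24 (edgeR adjusted p = 0.0417). It stayed past the threshold in 9 of 20 fits that each left out 1 library (adjusted p from 0.0182 to 0.120, the highest without WT1). It was 0.52 among KO libraries alone (adjusted p = 0.124) and, without S7, S9, S11 and S12, 0.30 (adjusted p = 0.237), where the 4 libraries left out are those with the lowest Pdp2.
Pdpr had the largest series estimate, 0.86 ± 0.29, at an adjusted p of 0.0505. Its 8 WT- and TKO-named libraries ran from 19.8 to 63.4 CPM with a median of 25.5, and its 12 S-named libraries from 6.71 to 26.3 with a median of 16.7. The 3 female WT libraries held 25.25, 7.21 and 10.1 CPM, and the 7 female KO libraries ran from 16.5 through 23.9 to 63.4. WT1 and TKO2, at 61.5 and 63.4 CPM, stood far above the other 18 libraries.

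**Figure D5:**
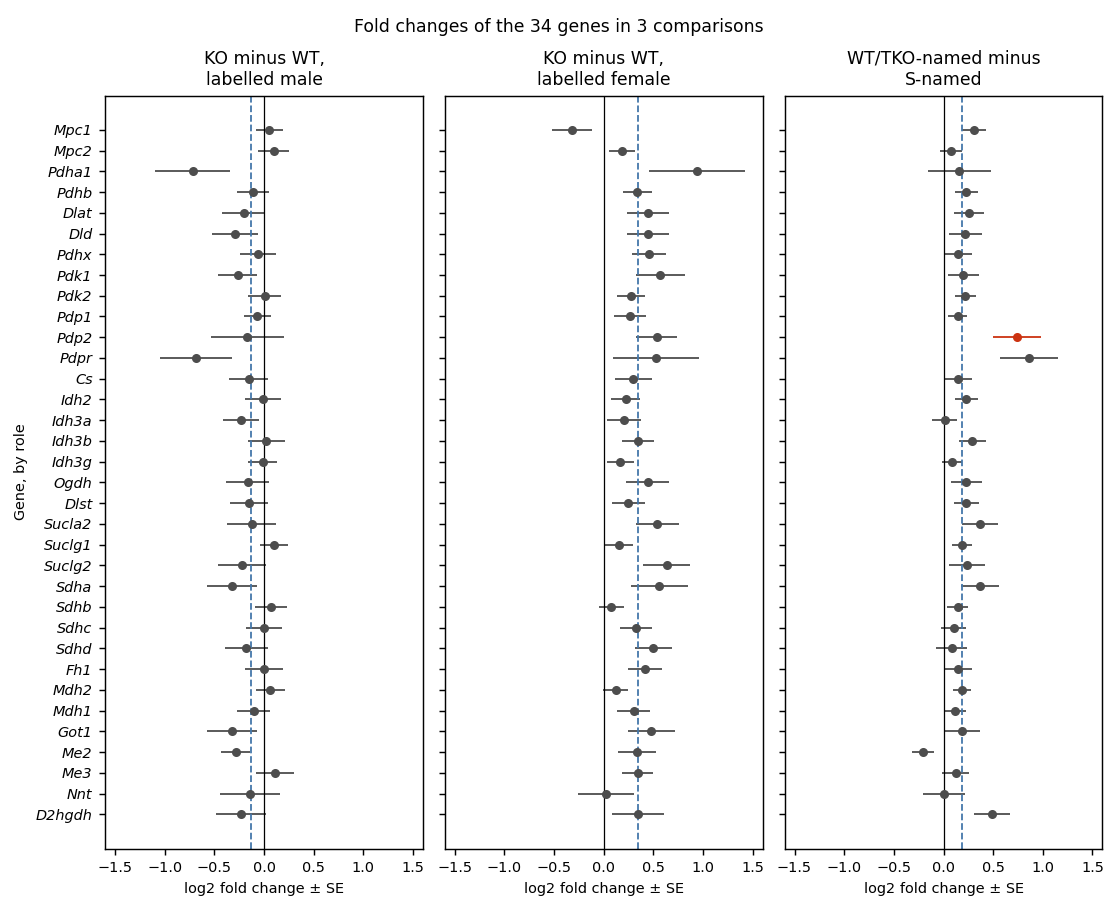
Log2 fold change (points) and SE (lines) of each of the 34 genes for KO minus WT among males, KO minus WT among females, and WT- or TKO-named minus S-named libraries; the dashed line is the median of the 34 and red marks an adjusted p under 0.05. The medians are -0.13, 0.34 and 0.19, and Pdp2 in the series comparison is the single red point.

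By role, the male estimates were of mixed sign and the female estimates mostly above 0. Of the pyruvate carrier, Mpc1 stood at 0.05 among males and -0.32 among females, and Mpc2 at 0.10 and 0.18. In the PDH complex, all 5 genes were estimated lower among males and higher among females, with Dlat, the acetyltransferase E2, at -0.21 and 0.45, Dld, the E3 dehydrogenase shared with the oxoglutarate complex, at -0.29 and 0.45, and Pdhx, the E3-binding protein, at -0.06 and 0.45. The kinases, which inhibit the complex, were at -0.27 and 0.57 (Pdk1) and 0.00 and 0.27 (Pdk2), and the phosphatase Pdp1 at -0.07 and 0.26.

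Of the enzymes from citrate to oxoglutarate, citrate synthase (Cs) stood at -0.15 among males and 0.30 among females, Idh2 at -0.01 and 0.22, and the 3 subunit genes of the NAD-dependent isocitrate dehydrogenase, Idh3a, Idh3b and Idh3g, between -0.23 and 0.02 among males and between 0.17 and 0.34 among females. Ogdh and Dlst, the E1 and E2 of the oxoglutarate dehydrogenase complex, stood at -0.16 and -0.16 among males and 0.44 and 0.25 among females. Sucla2 was at -0.12 and 0.54, and Suclg1, the alpha subunit that succinyl-CoA ligase shares between its forms, at 0.10 and 0.15.

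The 4 succinate dehydrogenase genes spread from -0.33 (Sdha) to 0.07 (Sdhb) among males and from 0.07 (Sdhb) to 0.56 (Sdha) among females, with the membrane anchor Sdhc at 0.00 and 0.32. Fumarase (Fh1) stood at 0.00 and 0.42 and Mdh2 at 0.06 and 0.12. Of the shuttle and malic enzymes, Mdh1 was at -0.11 and 0.30, Got1 at -0.32 and 0.48, Me2 at -0.29 and 0.33 and Me3, the NADP-dependent mitochondrial malic enzyme, at 0.11 and 0.34. D2hgdh was at -0.23 and 0.34. None of these passed the adjusted threshold in either comparison.

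Nnt (ENSMUSG00000025453, chromosome 13, 119335448 to 119408997, minus strand) was low in every group. Its level was 2.89 CPM in WT1, 3.16 in WT2, 3.55 in S7, 2.48 in S8 and 2.36 in S9, against 3.47 in S10, 2.59 in S11, 0.979 in S12, 3.07 in TKO5 and 3.22 in TKO6. Female WT libraries held 2.88, 2.81 and 2.73 CPM and female KO libraries 1.88 to 4.01 with a median of 2.28. These values rest on 15 to 58 counts a library, the groups overlapped, and the log2 fold change was -0.14 ± 0.30 among males and 0.02 ± 0.28 among females. As background, the C57BL/6J substrain carries a deletion within Nnt, and the labels give the strain as C57BL/6 without a substrain. GENCODE M21 lists a second gene named Nnt whose exons overlap this one on the same strand, so reads shared by both may not have been counted.

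Other genes of the pathway did not pass the test in any comparison. Of 29 further genes, 10 were estimated higher and 19 lower in KO among males (median -0.22), 23 higher and 6 lower among females (median 0.18), and 16 higher and 13 lower between series (median 0.05). Of 11 transcription regulators of mitochondrial genes, 0 were higher among males, 7 among females and 7 between series, and none was called. Pdk4, the PDH kinase induced by fasting and fatty acids, had a mean of 956.3 ± 299.7 FPKM, and its difference from Mdh1 did not go beyond this spread. Its level was 6291 CPM in WT1, 3389 in WT2, 2848 in S7, 3685 in S8 and 1804 in S9, against 3207 in S10, 1816 in S11, 1445 in S12, 3600 in TKO5 and 3114 in TKO6, and among female WT 4022 in S1, 2603 in S2 and 1631 in S3. The 7 female KO libraries ran from 3387 through 4041 to 4709 CPM. S12, S3, S9 and S11 were its lowest libraries, and its log2 fold change was -0.45 ± 0.27 among males (adjusted p = 0.882) and 0.58 ± 0.25 among females (adjusted p = 0.258). Got2, the mitochondrial aspartate aminotransferase, had log2 fold changes of -0.02 ± 0.17 among males and 0.20 ± 0.14 among females.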

How the data were processed

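Poly-A RNA from heart tissue in 20 libraries was sequenced as Illumina paired reads. The authors deposited 1 table with a raw read count and an FPKM value per gene and library; the submitters' processing notes name HISAT2, HTSeq 0.6.1p2, DESeq2 1.26.0 and the GRCm38 build, and each deposited FPKM could be recovered from its count, the library total and a fixed length of that gene. Annotation release and strand setting are not given in the sources used here; lengths in GENCODE M21 were within 1% of the table's for 28730 of 29328 genes. All columns matched a labelled sample.

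Groups followed the labels, and no 2 of the 44 library pairs within groups held identical values. CPM used TMM scaling. Genes reaching 10 counts in 3 or more fitted libraries were tested with edgeR 4.0.16 (quasi-likelihood, R 4.3.3) with Benjamini-Hochberg adjustment over all genes tested; limma 3.58.1 on log2(FPKM + 1) and DESeq2 1.42.0 were alternatives. KO minus WT was fitted for each labelled sex, with the library series as a covariate, then over all libraries, and as an interaction with labelled sex; series was fitted within labelled groups. Each fitted method was tested on simulated data.

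The members and gene lists were chosen with earlier results of these data known. Values in every library are given for members called in any comparison, the 2 with the largest absolute fold change in each sex, and Nnt (in groups over 5, the lowest, median and highest), and for Pdk4 from outside the set. Got2 is given by its fold changes, and the 3 highest and 3 lowest members by FPKM by their means. Another gene under this rule is not reported here. Sdha, Mdh2, Mpc1, Me2, Sdhb, Idh3g, Pdhb, Sucla2, Sdhd and Pdk1 were singled out after their values were seen. Replicates carry no shared numbers in the labels.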

Additional observations from a re-analysis of the deposited data

Results flagged for a closer look

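Of 102 gene and group combinations with 4 to 10 libraries, 5 had a library set apart from the rest by Dixon's 95% criterion, and chance alone flags about 1 in 20 groups. All 5 were in the female KO group. In TKO2, Pdpr stood at 63.35 CPM against 16.5 to 26.7 in the other 6 libraries. Ogdh stood at 1971 CPM in TKO2 against 1179 to 1495. Sdha stood at 1656 CPM there against 1028 to 1268, and Pdk1 at 191.7 CPM against 97.9 to 132.6. In S5, Nnt stood at 4.013 CPM against 1.88 to 2.67, a value that rests on 58 counts.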

How the results depend on the processing

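No paired analysis was possible because the replicate numbers only name libraries in accession order and the labels pair none. The alternatives that leave out S7, S9, S11 and S12, S7 to S9, S4 to S6, S4 to S9, or S2 and S3 were chosen after seeing the data. The Y-linked level could not be used as a covariate among females, where genotype is given to 99.97% by the other terms. The cause was not tested for any change below.

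Among males, 0 genes were called, against 12 by DESeq2, 59 with no filter on low counts, 5 in S-named libraries alone, 4 without S7, S9, S11 and S12, and 0 to 1 leaving out 1 library; members called stayed at 0 in all of these, and the median ran from -0.26 to -0.016 leaving out 1 library and was -0.20 with the Y-linked covariate (2 of 34 higher). Nnt then read 0.21 without S7, S9, S11 and S12, and Pdp2 ran from -0.43 to 0.21 (without S8) leaving out 1 library. Among females, 8 genes became 383 by DESeq2, 1110 with no filter, 2 with no series covariate, 366 without S4 to S6 (where series and genotype coincide), and 1 (without S6) to 2409 (without S1) leaving out 1 library. Female members called became 3 with no filter and 0 to 20 (without S1) leaving out 1 library, with the median from 0.21 (without S3) to 0.50. Without S2 and S3 the female median was 0.015, and Pdha1, Pdpr, Sdha and Mdh2 read -0.11, -0.28, -0.13 and -0.016. Female Nnt read -0.33 without S4 to S6 and -0.29 to 0.17 leaving out 1 library. For genotype over 20 libraries, 0 genes became 12 by DESeq2, 3 with no filter, 1 by limma, 9 in S-named libraries alone, 7 with the Y-linked covariate, 13 without S4 to S9 and 0 to 1 leaving out 1 library; the member median became -0.10 with the Y-linked covariate and -0.11 without S4 to S9. For series, 2231 genes became 588 among males alone. Series members called became 2 by DESeq2 (beside 2927 genes), 0 with upper-quartile scaling (beside 2295 genes; Pdp2 adjusted p = 0.0511), 3 with no filter (beside 2733 of 29339 genes), 0 among males alone, 0 without S7, S9, S11 and S12 (beside 1511 genes), and 0 (for example without WT1, beside 1700 genes) to 3 (without S10, beside 2270 genes) leaving out 1 library. The series median became 0.35 among males alone and -0.013 without S7, S9, S11 and S12, where Suclg2 read -0.069.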
